A study of Homo sapiens with 27 samples.

Results

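The genes described here are 52 protein-coding members of the WNT signalling pathway, measured in 9 human cell lines with 3 RNA libraries per line. Within this family, chosen with earlier results of these data known, the members were picked by symbol from the GENCODE 29 annotation, with no value used. They are the 19 WNT ligands, the 10 frizzled (FZD) receptors, the co-receptors LRP5 and LRP6, the R-spondin receptors LGR4, LGR5 and LGR6, and the 4 R-spondins (RSPO). The secreted inhibitors are the 4 Dickkopf (DKK) genes and 4 secreted frizzled-related (SFRP) genes, and 6 further genes, AXIN2, LEF1, TCF7, NKD1, RNF43 and ZNRF3, respond to the pathway or carry its signal. The tables held 34584 annotated genes, 19675 of them protein coding. All 52 members had counts in at least 1 library, and 44 of them were among the 17220 genes with enough counts to be tested.

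WNT proteins are lipid-modified signals that bind a frizzled receptor together with LRP5 or LRP6. Without them, a destruction complex built on APC and axin marks β-catenin for degradation. When they bind, the complex is held back, and β-catenin enters the nucleus and works with the DNA-binding proteins TCF7 and LEF1. RNF43 and ZNRF3 are membrane ubiquitin ligases that remove frizzled receptors, and R-spondins bound to LGR receptors remove these ligases. DKK proteins block the co-receptors, and SFRP proteins bind WNTs outside the cell. AXIN2, NKD1, RNF43, ZNRF3, LEF1 and LGR5 are textbook targets that rise when β-catenin is active. A second branch, used by WNT5A and related ligands, acts through planar polarity proteins and not through β-catenin.

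Caco2 (colorectal adenocarcinoma, labelled colon) is known to carry a truncated APC, and HepG2 (liver tumour, labelled liver) a deletion in CTNNB1 that stabilises β-catenin. Each was therefore set against the mean of the 7 other lines. SK-Mel 28 was set against SK-Mel 24, since these melanoma lines are the only pair with 1 tissue label, skin. The remaining lines carry the tissue labels bone (U2-OS, from an osteosarcoma), lung (A549, from an adenocarcinoma), brain (U251, from a glioblastoma), epithelial (BJ, which are skin fibroblasts) and kidney (RT4, known as a tumour line of the bladder). No treatment is named in the labels. Caco2, HepG2, SK-Mel 28 and U251 grew in EMEM with 10% serum, SK-Mel 24 in EMEM with 15% serum, A549 and BJ in DMEM, and RT4 and U2-OS in McCoy medium, these 4 with 10% serum. Between lines grown in different media, line and medium cannot be told apart. Each line is 1 established culture, and the 3 libraries of a line were called biological replicates without a statement of how separate they were, and the p-values cover no more than the spread from library to library.

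Libraries held 15597117 to 32583547 estimated counts. The 4 hepatocyte markers were above 1 TPM in HepG2, the 4 enterocyte markers in Caco2 and the 4 melanocyte markers in both SK-Mel lines. The 4 urothelium markers were above 1 TPM in RT4 and none of the 4 kidney tubule markers was. In BJ the 4 fibroblast markers were above 1 TPM, against 1 of 4 epithelium markers. Astroglia markers passed in U251 (4 of 5, summing to 142.5 to 225.9 TPM), but also in SK-Mel 24 (5 of 5, 6840 to 9583 TPM), and the 4 hepatocyte markers also passed in Caco2, so these lists do not set a line apart. Only 2 of 5 osteoblast markers passed in U2-OS, as in HepG2, and 1 of 5 lung epithelium markers in A549. HepG2 stood apart in its mitochondrial transcripts, which took 71.1%, 33.8% and 32.6% of its counts, whereas the 24 libraries of all other lines had 0.928% to 5.72%. The mean fragment length implied by the tables was 183 to 197 bases in HepG2 and 224 to 253 bases elsewhere. Since TPM is a share of the library, a larger mitochondrial share leaves less for every other gene. For this reason TPM and the fit were also computed without mitochondrial genes, and the part of the fragment length was not tested. In such bulk libraries, fewer expressing cells and less RNA per cell cannot be told apart.

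RefSeq (GRCh38.p14) gave the 250 bases before the start for 41 transcription starts of 34 members. They were searched on both strands for 4 forms of the core sequence bound by TCF and LEF proteins. CTTTGAA was in 3.81% of the windows of all genes, CTTTGAT in 2.26%, CTTTGTA in 2.35% and CTTTGTT in 4.50%. At least 1 of the 4 was found in 2 member windows, against 4199 of the 35116 windows of all genes (12.0%). One was the DKK1 window, with CTTTGAA and, further on, CTTTGTT. The other was the window of the second TCF7 start, with AACAAAG, which is CTTTGTT read from the opposite strand. Both genes were higher in Caco2. They are printed with the windows of SFRP5, which was also higher in Caco2, and LGR4, which was highest in A549, both of which held none of the 4. Each is given 5′ to 3′ on the strand of its gene, and capitals mark the motif.
DKK1, chr10:52314031-52314280, plus strand: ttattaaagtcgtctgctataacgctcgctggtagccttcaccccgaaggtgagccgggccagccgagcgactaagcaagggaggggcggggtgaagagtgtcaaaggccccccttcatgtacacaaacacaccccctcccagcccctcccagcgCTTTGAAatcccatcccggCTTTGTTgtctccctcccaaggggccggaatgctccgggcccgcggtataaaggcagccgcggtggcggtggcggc
TCF7, chr5:134123368-134123617, plus strand: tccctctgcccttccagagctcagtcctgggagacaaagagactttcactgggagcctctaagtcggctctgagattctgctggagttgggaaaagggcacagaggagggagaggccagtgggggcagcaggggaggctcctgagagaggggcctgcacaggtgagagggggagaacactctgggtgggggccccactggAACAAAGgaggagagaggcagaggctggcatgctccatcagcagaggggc
SFRP5, chr10:97772000-97772249, minus strand: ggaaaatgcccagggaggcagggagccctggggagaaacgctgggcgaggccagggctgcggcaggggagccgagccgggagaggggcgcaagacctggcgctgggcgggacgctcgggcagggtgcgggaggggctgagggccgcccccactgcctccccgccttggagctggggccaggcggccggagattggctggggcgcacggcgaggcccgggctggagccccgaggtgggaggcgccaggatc
LGR4, chr11:27472791-27473040, minus strand: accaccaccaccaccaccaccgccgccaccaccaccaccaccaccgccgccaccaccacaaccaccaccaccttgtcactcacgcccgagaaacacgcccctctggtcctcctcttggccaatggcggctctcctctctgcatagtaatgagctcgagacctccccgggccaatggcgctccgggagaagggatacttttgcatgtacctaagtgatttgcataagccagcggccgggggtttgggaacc
The first bases of the DKK1 motifs lay at -95 and -76 and that of the TCF7 motif at -50, counted back from -1 just before the start. A match describes these letters only.

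Across the 9 lines, the members ranged from genes near 0 in every line to inhibitors at over 1000 TPM. TPM, a level scaled to library total and transcript length, allows this, since it sets genes of unequal length side by side. A total of 11 members stayed below a mean of 1 TPM in every line, 11 reached it in 1 line only, and FZD4, LGR4 and LRP5 reached it in all 9, as did FZD6, LRP6 and ZNRF3 without mitochondrial genes. U2-OS had the most members at 1 TPM or more, 30 of 52, with 8 WNT ligands among them. The number was 23 in Caco2, 11 in HepG2, 20 in SK-Mel 28, 21 in SK-Mel 24, 24 in A549, 20 in U251, 18 in BJ and 23 in RT4. Among all protein-coding genes, U2-OS libraries also had the most at 1 TPM or more, 12507 to 12828. HepG2 libraries had the fewest, 8055 to 10002, and those of the remaining lines 11367 to 12053. The places of U2-OS and HepG2 are thus not particular to the pathway. HepG2 was the line in which no WNT ligand reached 1 TPM, but recomputed without mitochondrial genes WNT10A stood at 1.55 TPM there and 16 members reached 1 TPM. BJ held the highest mean of 12 members, Caco2 of 10, U2-OS and A549 of 7 each, RT4 of 6, SK-Mel 24 of 5, SK-Mel 28 of 3, HepG2 of 2 and U251 of none. For HepG2 this count depends on the scale: it was 6 by TPM without mitochondrial genes and 9 of the 44 tested members by the fit to counts. For 29 members all 3 libraries of the top line lay above those of the next line, and for 23 they overlapped. The same count was not made over all genes, so it does not set the pathway apart.

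**Figure D1:**
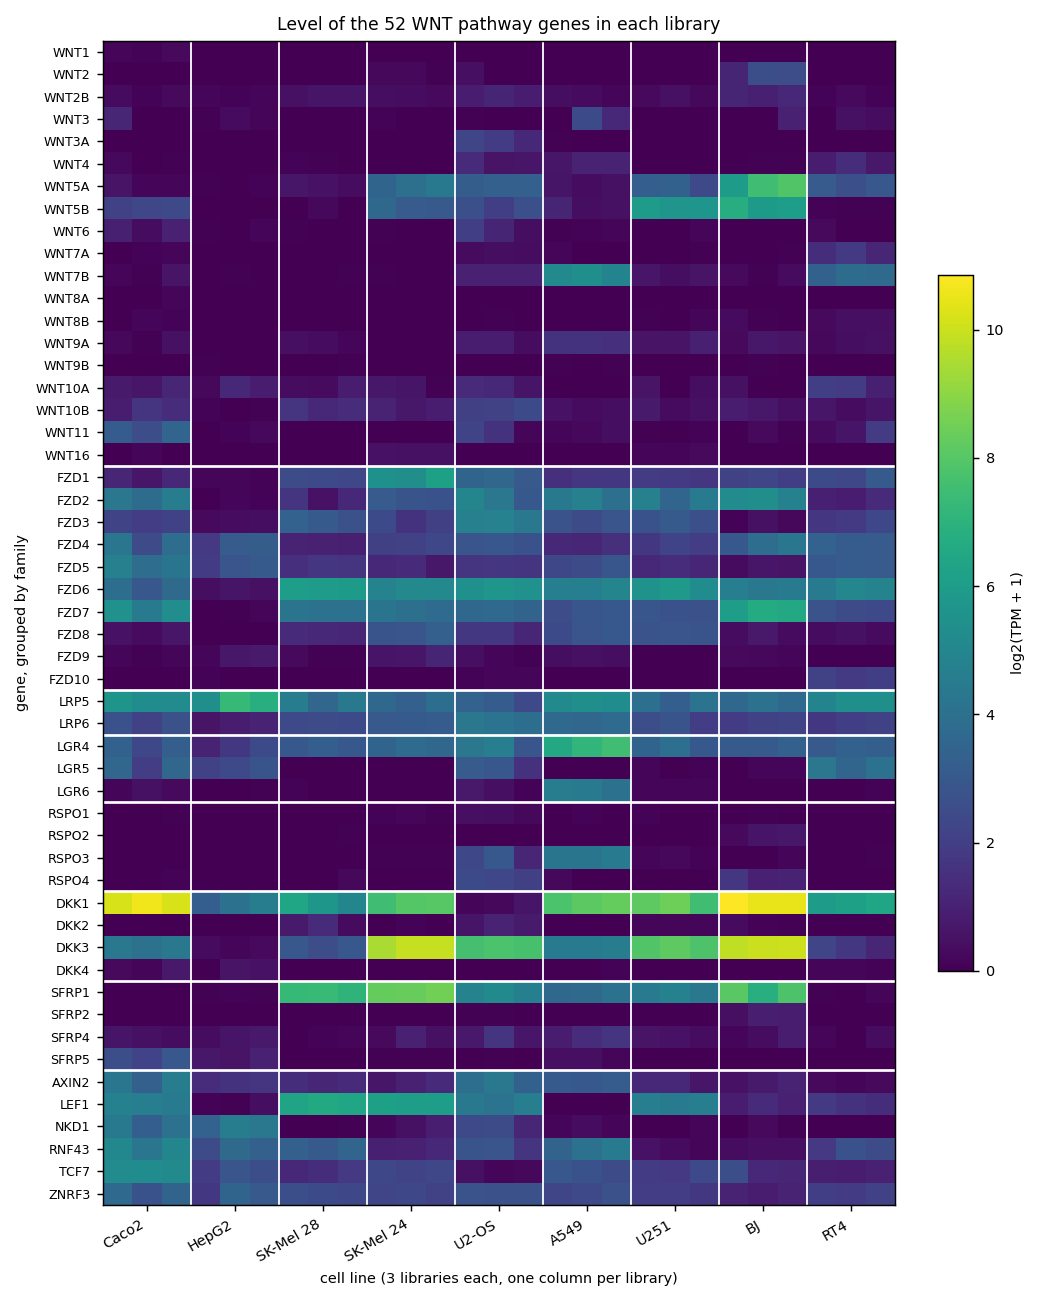
Level of each of the 52 genes (rows, grouped by family) in each of the 27 libraries (columns, 3 per line), as log2(TPM + 1) on the colour scale. DKK1 and DKK3 are the brightest rows, most FZD rows are dark in HepG2, and most WNT rows are dark in most lines.

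All 44 tested members differed between lines in the F test (false discovery rate 0.05), but so did 98.3% of all genes tested, so that count says nothing particular about the pathway. A narrower question was which members were enriched in 1 line, meaning higher than in each of the 8 other lines at a false discovery rate of 0.05 and at least 4-fold above the next. In A549 there were 3 (LGR4, LGR6 and RSPO3), where 0.836% of all tested genes passed, and in BJ there were 3 (WNT5A, WNT2 and SFRP2), where 1.77% passed. RT4 had 2 (FZD10 and WNT7A; 2.07% of all genes). One member each passed in HepG2 (NKD1; 3.82%), SK-Mel 24 (FZD1; 0.929%) and U2-OS (WNT3A; 1.91%). By edgeR none passed in Caco2, SK-Mel 28 or U251, where 1.18%, 1.25% and 0.314% of all genes did. DESeq2 also called 0 in each, and at an unadjusted p under 0.05 with the same margin the counts were 1 (WNT11, adjusted p = 0.142 by edgeR's quasi-likelihood test), 0 and 0. With HepG2 left out, SFRP5, WNT11, NKD1 and TCF7 passed in Caco2. With DESeq2 in place of edgeR, the calls of WNT3A in U2-OS, FZD10 in RT4 and SFRP2 in BJ were lost (adjusted p = 1 each). With the P number of the titles as a covariate, WNT2 in BJ was lost (edgeR quasi-likelihood test, Benjamini-Hochberg adjusted p = 0.108).

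Among the ligands, WNT5A, the best known signal of the β-catenin-independent branch, had the highest level. It measured 63.7, 184 and 239 TPM in the 3 BJ libraries, against 10.4, 15.3 and 19.8 TPM in SK-Mel 24, 8.29, 9.11 and 9.20 TPM in U2-OS, 8.35, 9.24 and 4.34 TPM in U251 and 7.56, 5.26 and 6.61 TPM in RT4. It lay at 0.0203 to 0.564 TPM in the 12 libraries of Caco2, HepG2, SK-Mel 28 and A549. The lowest BJ library was thus above every library of another line, although the BJ libraries themselves spread widely. The fitted margin over the next line, SK-Mel 24, was 3.84 on the log2 scale (edgeR quasi-likelihood test, Benjamini-Hochberg adjusted p = 5.31e-07).

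WNT5A lies on the minus strand of chromosome 3, and its level came from 2 transcripts with different first exons in GRCh38. WNT5A-202 starts at 55489945 and WNT5A-201 at 55487642. WNT5A-202 measured 23.6, 151 and 215 TPM in the BJ libraries, 80.1% of the gene's mean, and 2.62, 11.4 and 12.6 TPM in SK-Mel 24. WNT5A-201 measured 37.0, 30.1 and 20.9 TPM in BJ, 7.06, 3.02 and 4.59 TPM in SK-Mel 24 and 8.22, 9.04 and 4.34 TPM in U251. The upstream form was therefore the larger one in 2 of the 3 BJ libraries and the smaller one in the first. WNT5A-201 made up 98.5% of the gene in U251 and 91.2% in U2-OS. These shares are the authors' assignment of reads to transcripts and were given no test.

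**Figure D2:**
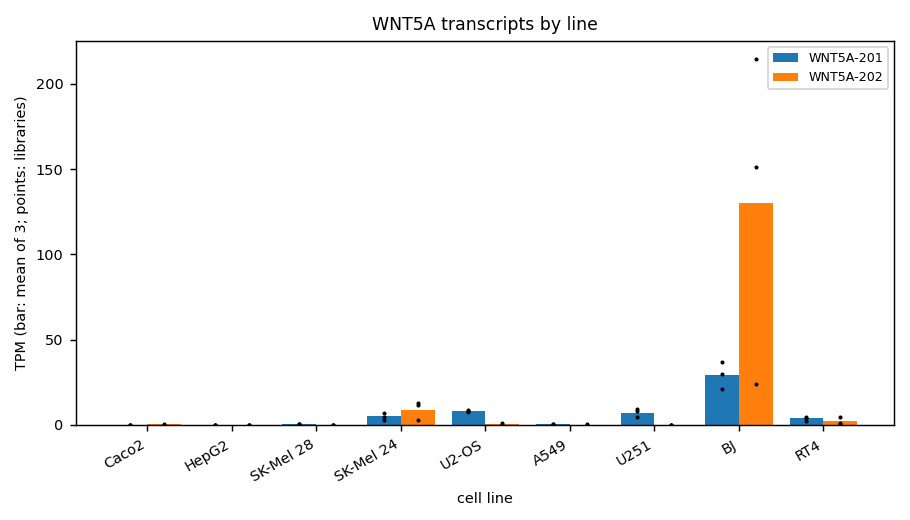
Mean TPM of WNT5A-201 and WNT5A-202 (bars) in each line, with the 3 libraries as points. In BJ the WNT5A-202 points run from 23.6 to 215 TPM, and in U251 and U2-OS nearly all WNT5A belongs to WNT5A-201.

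WNT5B, a close relative of WNT5A, was high in BJ (108, 59.3 and 67.2 TPM) and U251 (60.6, 49.9 and 51.7 TPM), where the libraries of the 2 lines overlapped. Caco2 had 3.25, 4.01 and 4.22 TPM, SK-Mel 24 11.8, 7.61 and 7.22 TPM and U2-OS 5.31, 3.05 and 5.24 TPM. HepG2, SK-Mel 28, A549 and RT4 held 0 to 1.15 TPM. WNT11, which also signals mostly outside the β-catenin branch, was highest in Caco2. It measured 7.96, 4.85 and 10.8 TPM in Caco2, against 3.62, 2.02 and 0.158 TPM in U2-OS, 0.248, 0.516 and 2.74 TPM in RT4 and 0 to 0.310 TPM in the 18 remaining libraries.

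The other ligands were lower or held to few lines. WNT7B averaged 35.1 ± 6.31 TPM in A549 and 11.7 ± 2.14 TPM in RT4 (SD, n = 3 each), and its mean was 0.0219 to 1.01 TPM in the other lines. WNT2 averaged 3.76 ± 2.24 TPM in BJ, and WNT3A, a classical activator of β-catenin, 2.65 ± 1.22 TPM in U2-OS, where their margins over the next line were 5.67 and 6.49 on the log2 scale. WNT7A averaged 1.84 ± 0.687 TPM in RT4, with a margin of 3.42. WNT10B was highest in U2-OS, at 3.64 ± 0.735 TPM, and WNT10A in RT4, at 2.28 ± 1.16 TPM. WNT2B, WNT3, WNT4, WNT6 and WNT9A each reached 1 TPM in 1 line, with highest means of 1.17 TPM (BJ), 1.93 TPM (A549), 1.06 TPM (RT4), 1.51 TPM (U2-OS) and 1.93 TPM (A549). WNT3 in A549 ran from 0 to 4.47 TPM between libraries. WNT1, WNT8A, WNT8B, WNT9B and WNT16 had too few counts to be tested, with highest line means of 0.0270 TPM (WNT9B) to 0.419 TPM (WNT16).

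Ligands need the acyltransferase PORCN, which attaches their lipid, and the carrier WLS, which brings them to the cell surface. WLS measured 0.157, 0.0929 and 0 TPM in HepG2, against 19.8 to 109 TPM in the 24 other libraries, and its log2 fold change against the 7 lines was -8.43 (SE 0.30). PORCN was also lower in HepG2, at 0.209, 0.869 and 1.37 TPM, with a log2 fold change of -1.68. In Caco2, PORCN had 1.42, 0.733 and 3.29 TPM and WLS 23.3, 22.4 and 24.4 TPM, with log2 fold changes of -2.21 and -1.12. The 7 reference lines averaged 5.70 to 11.1 TPM for PORCN and 22.0 to 105 TPM for WLS. Both genes of this list were therefore called lower in each of Caco2 and HepG2, where 16.4% and 24.8% of all genes tested were. Neither was called between the SK-Mel lines.

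The frizzled receptors, which bind the ligands, were found in every line. At a mean of 1 TPM or more, 8 of the 10 were present in each of SK-Mel 28, SK-Mel 24, U2-OS, A549, U251 and RT4, 7 in Caco2, 5 in BJ and 2 in HepG2 (3 there without mitochondrial genes, with FZD6 at 1.03 TPM). FZD7 had the highest level of the family. It measured 43.8, 21.6 and 38.7 TPM in Caco2 and 0.0189, 0.0433 and 0.103 TPM in HepG2, against 64.2, 102 and 94.3 TPM in BJ and 4.26 to 17.2 TPM in the 18 libraries of the 6 other lines. HepG2 thus had nearly none of it. FZD6, most often linked to planar polarity, stood at 14.0, 6.71 and 12.5 TPM in Caco2 and 0.315, 0.528 and 0.396 TPM in HepG2, below the 19.1 to 64.7 TPM of the 7 reference lines with no overlap. FZD2 measured 18.6, 13.3 and 22.6 TPM in Caco2 and 0.0120, 0.103 and 0.0786 TPM in HepG2, against 36.3, 40.6 and 26.1 TPM in BJ and 7.06 to 30.05 TPM in U2-OS, A549 and U251. The remaining libraries, of SK-Mel 28, SK-Mel 24 and RT4, held 0.423 to 7.72 TPM.

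FZD1 was the frizzled of SK-Mel 24, with 42.1, 40.6 and 70.6 TPM there, against 4.72, 4.31 and 4.02 TPM in SK-Mel 28 and 0.0835 to 11.0 TPM in all other libraries. Its margin over U2-OS, the next line, was 2.64 on the log2 scale (edgeR quasi-likelihood test, Benjamini-Hochberg adjusted p = 2.79e-06). FZD5 was highest in Caco2, at 25.7, 13.7 and 17.6 TPM, all above the 0.263 to 7.81 TPM of the 7 reference lines. HepG2 held 2.85, 6.18 and 7.40 TPM of it. FZD4, which also serves as the receptor of Norrin, measured 18.4, 4.61 and 13.7 TPM in Caco2, 2.52, 7.80 and 8.13 TPM in HepG2 and 6.88, 13.9 and 18.0 TPM in BJ. Its other libraries ran from 0.948 to 9.66 TPM. FZD4 shares exon positions with PRSS23 on the opposite strand, so reads of the 2 genes could mix if strand was not used in counting, which is not given in the sources used here.

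FZD8 was found mainly in SK-Mel 24 (6.04, 6.27 and 8.99 TPM), U251 (5.85, 6.26 and 6.04 TPM) and A549 (4.43, 6.21 and 6.90 TPM), whose libraries overlapped, and held 0 to 2.40 TPM elsewhere. FZD3 was highest in U2-OS, at 23.7 ± 4.08 TPM, and FZD10 in RT4, at 2.96 ± 0.375 TPM with a margin of 4.16 over the next line. FZD9 stayed below 1 TPM in every line. The co-receptor LRP6 averaged 16.6 ± 2.19 TPM in U2-OS and 12.1 ± 0.987 TPM in A549, and its lowest mean was 0.787 TPM, in HepG2 (1.86 TPM without mitochondrial genes).

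The other co-receptor, LRP5, had the highest level of the pair, in HepG2. It measured 41.3, 155 and 110.2 TPM there, 48.1, 37.9 and 36.6 TPM in Caco2, 36.1, 41.4 and 38.1 TPM in A549 and 29.04, 41.7 and 41.8 TPM in RT4. The other 5 lines held 4.34 to 23.5 TPM. By transcript, an analysis chosen after the values were seen, the full-length transcript of 5159 bases gave only 5.25 TPM in HepG2, 5.14% of the gene, against 22.7 TPM in Caco2, 31.7 TPM in A549 and 28.0 TPM in RT4. Short transcripts near the 3′ end of the gene, LRP5-205 (586 bases) and LRP5-204 (551 bases), gave 44.7 and 33.4 TPM in HepG2. The HepG2 level of LRP5 therefore rests mostly on these short transcripts.

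The R-spondin receptors LGR4 and LGR6 and the ligand RSPO3 were enriched in A549. LGR4 measured 92.3, 139.6 and 182 TPM in A549, against 1.13 to 23.7 TPM in the 24 other libraries. LGR6 measured 22.9, 20.7 and 16.2 TPM in A549, against 0 to 0.649 TPM in all others. RSPO3, a secreted partner of these receptors, measured 17.9, 17.8 and 22.0 TPM in A549, 4.04, 7.02 and 1.24 TPM in U2-OS and 0 to 0.186 TPM elsewhere. For each of the 3 genes every A549 library lay above every other library. The margins over the next line, U2-OS in each case, were 3.42, 7.51 and 2.62 on the log2 scale (edgeR quasi-likelihood test, Benjamini-Hochberg adjusted p = 2.36e-07, 3.98e-10 and 0.00179).

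LGR5, known as the marker of intestinal stem cells, had 0 counts in the 3 A549 libraries. It measured 11.1, 2.88 and 10.8 TPM in Caco2, 3.36, 4.32 and 6.11 TPM in HepG2, 18.7, 10.6 and 15.7 TPM in RT4 and 7.76, 6.68 and 1.94 TPM in U2-OS. The SK-Mel 28, SK-Mel 24, U251 and BJ libraries held 0 to 0.148 TPM. Thus 4 lines carried LGR5 above 1 TPM, and RT4, with the highest mean, overlapped Caco2. Of the other R-spondins, RSPO4 averaged 3.83 ± 0.657 TPM in U2-OS and 1.45 ± 0.691 TPM in BJ, RSPO2 0.456 ± 0.209 TPM in BJ, and RSPO1 no more than 0.292 TPM in any line. RSPO1 and RSPO2 had too few counts to be tested.

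The secreted inhibitors DKK1, DKK3 and SFRP1 had the highest levels of all members by TPM, each in part of the lines. DKK1, which blocks LRP5 and LRP6, measured 1159.8, 1565 and 1183 TPM in Caco2 and 1856, 1463 and 1431 TPM in BJ, which overlapped. HepG2 had 8.38, 16.3 and 22.7 TPM, SK-Mel 28 86.0, 52.6 and 30.96 TPM and RT4 61.4, 70.8 and 83.3 TPM, and SK-Mel 24, A549 and U251 183 to 352 TPM. U2-OS alone had hardly any, with 0.102, 0.191 and 0.529 TPM. DKK3, a divergent member of the family, measured 894, 1029 and 1033 TPM in BJ and 705, 962 and 953 TPM in SK-Mel 24, 243, 282.1 and 228 TPM in U251 and 199.7, 222 and 208.7 TPM in U2-OS. Caco2, SK-Mel 28, A549 and RT4 held 1.24 to 23.0 TPM of DKK3, and HepG2 0.229, 0.110 and 0.208 TPM. DKK2 stayed under 1 TPM in every line, and DKK4 had too few counts to be tested.

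SFRP1, which binds WNTs, measured 155, 157 and 134 TPM in SK-Mel 28, 310.1, 319 and 377 TPM in SK-Mel 24 and 269, 115 and 223 TPM in BJ. It lay at 11.6 to 34.6 TPM in U2-OS, A549 and U251. Caco2, HepG2 and RT4 had next to none, with 0 to 0.107 TPM. SFRP5 was placed differently, with 5.08, 3.495 and 6.62 TPM in Caco2 and 0.616, 0.481 and 1.01 TPM in HepG2, against 0 to 0.362 TPM in the 21 libraries of the other lines. Of these 7 lines, 4 had 0 counts of SFRP5. SFRP4 reached 1.56 TPM in A549 and 1.14 TPM in U2-OS, and SFRP2 was seen mainly in BJ, at 0.686 ± 0.281 TPM.

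**Figure D3:**
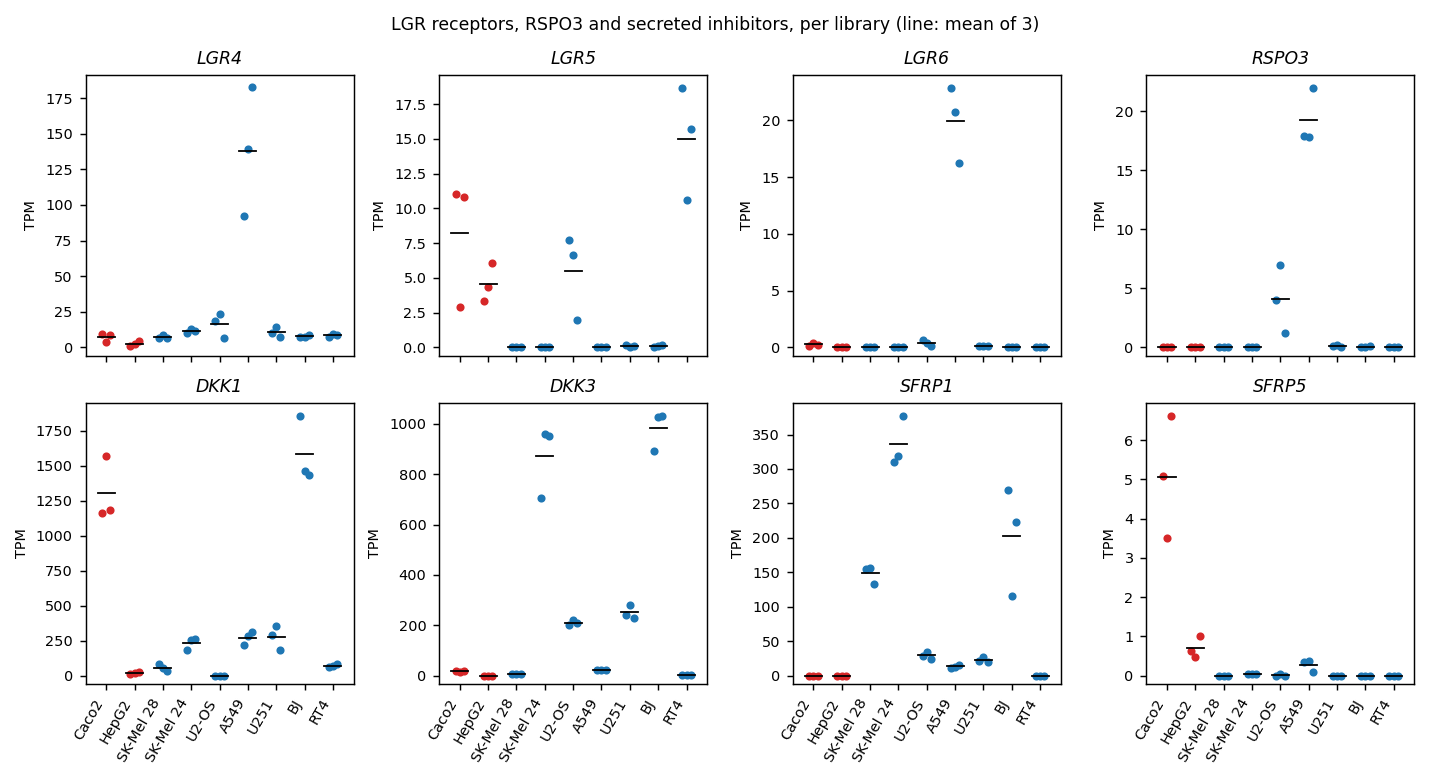
TPM per library (points; red for Caco2 and HepG2, blue for the 7 other lines) and mean of 3 (bars) for the LGR receptors, RSPO3 and 4 secreted inhibitors. The A549 points of LGR4, LGR6 and RSPO3 lie above all others, DKK1 is highest in BJ and Caco2, and SFRP1 and SFRP5 are high in different lines.

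The 6 responsive genes and signal carriers came next. AXIN2, a scaffold of the destruction complex and itself a target, measured 18.0, 8.95 and 23.4 TPM in Caco2, 1.59, 1.99 and 2.12 TPM in HepG2, 14.4, 19.3 and 9.48 TPM in U2-OS and 7.39, 6.90 and 7.84 TPM in A549. It held 0.103 to 1.64 TPM in the other 5 lines. Caco2 and U2-OS overlapped, and every library of both stood above those of A549, which in turn stood above HepG2. NKD1, which binds Dishevelled and restrains the signal, measured 19.8, 8.55 and 15.9 TPM in Caco2 and 9.70, 23.6 and 19.2 TPM in HepG2, against 4.26, 4.54 and 1.28 TPM in U2-OS and 0.00510 to 0.893 TPM in the 18 remaining libraries. The Caco2 and HepG2 libraries overlapped by TPM. In the fit to counts, scaled by TMM, NKD1 was called enriched in HepG2, 2.26 above Caco2 in log2 (edgeR quasi-likelihood test, Benjamini-Hochberg adjusted p = 8.17e-07). Recomputed without mitochondrial genes, the HepG2 mean was 40.0 TPM for NKD1 and 4.89 TPM for AXIN2.

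RNF43 measured 32.3, 18.0 and 30.5 TPM in Caco2, 10.1, 16.1 and 21.7 TPM in A549, 8.95, 7.50 and 10.5 TPM in SK-Mel 28 and 4.71, 12.4 and 9.09 TPM in HepG2. U2-OS and RT4 held 2.10 to 6.37 TPM, and SK-Mel 24, U251 and BJ 0.0961 to 1.33 TPM. Of the 31-base stretches in RNF43 transcripts, 59.2% also occur in other genes, 56.5% in AC004687.2. That gene was not among those matched here, and RNF43 levels are uncertain. ZNRF3, the partner ligase, varied less, from 12.1, 5.57 and 10.00 TPM in Caco2 and 2.42, 10.5 and 7.30 TPM in HepG2 to 1.14, 0.783 and 1.04 TPM in BJ. In the 6 other lines it ran from 2.42 to 5.87 TPM.

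TCF7, a DNA-binding partner of β-catenin, measured 37.3, 37.5 and 36.2 TPM in Caco2, against 2.80, 6.32 and 5.09 TPM in HepG2 and 0.151 to 6.64 TPM in the 21 other libraries. Its main transcript, which starts at 134115625 on chromosome 5 in GRCh38, upstream of the window printed above, gave 81.1% of the gene in Caco2 and 61.1% to 90.9% in the lines where the gene reached 1 TPM. LEF1, its relative, was highest in SK-Mel 28 (79.7, 96.4 and 81.6 TPM) and SK-Mel 24 (71.9, 65.4 and 64.2 TPM). Caco2 had 26.1, 24.2 and 20.3 TPM of LEF1, U2-OS 20.3, 16.5 and 24.0 TPM and U251 23.7, 21.0 and 23.9 TPM, which overlapped. BJ and RT4 held 0.822 to 2.56 TPM, HepG2 0.0715, 0.0589 and 0.316 TPM, and A549 had 0 counts in its 3 libraries. A LEF1 transcript of 11 exons gave 19.8% to 36.9% of LEF1 and an AXIN2 transcript of 10 exons gave 36.8% to 70.7% of AXIN2 where those genes reached 1 TPM. Exons of TCF7 and LEF1 overlap SKP1 and LEF1-AS1 on the opposite strand, and those of DKK1, FZD6, LGR5, NKD1, RNF43, WNT2, WNT2B, WNT4 and WNT11 also overlap a gene there, so the same uncertainty over strand holds for them. AXIN2 shares 24.7% of its 31-base stretches with AC004805.1 and AC115115.1. The line means of AC004805.1 were 0 to 0.336 TPM, and AC115115.1 stood at 0 TPM in every line.

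**Figure D4:**
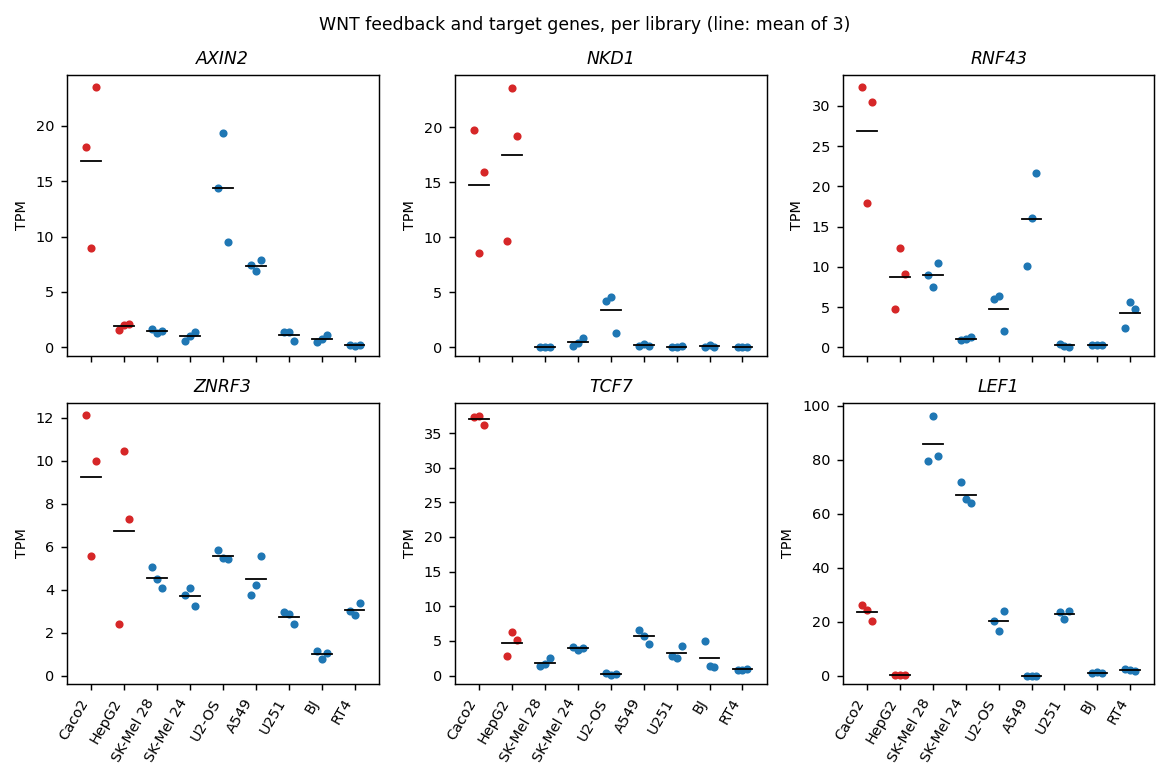
TPM per library (points; red for Caco2 and HepG2, blue for the 7 other lines) and mean of 3 (bars) for AXIN2, NKD1, RNF43, ZNRF3, TCF7 and LEF1. NKD1 is high in Caco2 and HepG2, TCF7 in Caco2, and LEF1 in SK-Mel 28 and SK-Mel 24, with no LEF1 in A549.

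Set against the mean of the 7 reference lines, 19 of the 44 tested members were higher in Caco2, where 20.6% of all genes tested were, and 9 were lower, where 16.4% were. A call needed an adjusted p under 0.05 and a log2 fold change of at least 1 in size. The median log2 fold change was 0.23 over members and -0.04 over all genes tested. By family, 6 WNT, 4 FZD, 1 LGR, 1 DKK and 1 SFRP gene and all 6 of the responsive genes were higher. The lower members were 3 WNT, 3 FZD, 1 RSPO, 1 DKK and 1 SFRP gene. Of the tested members, DKK2, SFRP2, WNT2 and WNT3A had 0 counts in Caco2 and in some reference lines. The test could not call them lower. NKD1 had a log2 fold change of 7.41 (SE 0.18), TCF7 4.57 (SE 0.18), AXIN2 3.68 (SE 0.20), RNF43 3.53 (SE 0.18), LEF1 2.26 (SE 0.17) and ZNRF3 1.58 (SE 0.12). For NKD1, TCF7, SFRP5, WNT11 and FZD5, all 3 Caco2 libraries lay above all 21 libraries of the reference lines. For AXIN2, RNF43, ZNRF3 and LEF1 this was not so. By TPM, Caco2 lay wholly above 6 of the 7 lines and overlapped 1 for each of AXIN2, RNF43 and ZNRF3. For LEF1, Caco2 lay wholly above 3 of the 7 lines, wholly below the 2 SK-Mel lines, and overlapped 2.

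Further members higher in Caco2 were SFRP5 (8.59), WNT11 (6.69), LGR5 (6.51) and DKK1 (4.14) on the log2 scale. Of these, SFRP5 had 4 reference lines at 0 counts, WNT11 2 and LGR5 1, and LEF1, WNT6 and WNT10A also had 1 each. The fitted sizes of these 6 genes therefore depend on the small count added in the fit. WNT6, WNT10A, FZD5, WNT3, FZD4, FZD7, FZD2, WNT5B and WNT10B followed, from 3.92 to 1.08. WNT3 rested on 1 Caco2 library, at 1.27 TPM against 0.00610 and 0 TPM in the others, and without it the log2 fold change was -4.39 and not called. Without the second Caco2 library, the shallowest of all, WNT5B (0.996), WNT10B (0.61) and WNT2B (-0.989) were no longer called. The lower members were led by SFRP1 (-11.75, SE 0.57), RSPO3 (-5.53) and WNT5A (-4.32, SE 0.45), followed by FZD1 (-2.44), DKK3 (-2.43), FZD8 (-2.13), WNT7B (-1.92), FZD6 (-1.64) and WNT2B (-1.12). SFRP1 had 1 count over the Caco2 libraries, so its fitted size depends on the small count added. RSPO3 had no count in Caco2. Its call was lost when any of 3 reference libraries was left out, since a reference line then stood at 0.

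Of 9 other target genes of the pathway, 4 were higher and 1 lower in Caco2, where 20.6% and 16.4% of all genes tested were. The transcription factor SP5 measured 47.0, 21.2 and 23.5 TPM in Caco2 and 0 to 0.512 TPM in the reference lines, and ASCL2, known from intestinal stem cells, 8.84, 5.60 and 6.65 TPM against 0 to 1.17 TPM. CD44, a surface glycoprotein, was lower, at 77.3, 74.1 and 84.0 TPM against line means of 89.3 to 1069 TPM, with a log2 fold change of -2.24 (SE 0.32). Of 9 tested other inhibitors, 5 were higher, among them NKD2 (4.41, 6.29 and 8.33 TPM) and the DKK1 receptor KREMEN1 (12.8, 8.16 and 15.9 TPM, log2 fold change 1.19, SE 0.16). APCDD1, a membrane inhibitor, was the 1 that was lower (-1.96, SE 0.74), although U2-OS, A549 and RT4 also held only 0 to 0.399 TPM of it.

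Of the 10 genes of the destruction complex, 2 were higher and 1 lower in Caco2, where 20.6% and 16.4% of all genes tested were. AXIN1 was higher (20.6, 17.1 and 22.7 TPM, log2 fold change 1.15, SE 0.16), and APC, the gene known to be truncated in this line, was lower (3.83, 2.02 and 4.29 TPM, -1.08, SE 0.18). Among 10 transducers only CTNNB1, which encodes β-catenin, was called. It measured 50.8, 35.8 and 71.7 TPM in Caco2 against line means of 138 to 369 TPM, a log2 fold change of -1.89 (SE 0.14). Of 11 genes of the β-catenin-independent branch, 4 were higher, led by the receptor ROR1 (2.88, SE 0.22) and the cadherin CELSR1 (2.81, SE 0.15). Another 4 were lower, led by the planar polarity genes PRICKLE1 (-4.40, SE 0.40) and PRICKLE2 (-2.10, SE 0.28).

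In HepG2, tested against the same 7 lines, 16 of 44 members were higher, where 26.2% of all genes tested were, and 14 were lower, where 24.8% were. The reference lines are shared with the Caco2 contrast, so the 2 are not compared here. The median log2 fold change was -0.70 over members and -0.18 over all genes. With DESeq2 size factors in place of TMM the median of all genes was -0.07, so HepG2 changes are to be read against the shift of -0.18. By family, 5 of 6 responsive genes, 4 FZD, 3 WNT, 2 SFRP, 1 LGR and 1 LRP gene were higher. The lower members were 6 WNT, 5 FZD, 1 RSPO, 1 DKK and 1 SFRP gene. Of the tested members, DKK2, RSPO4, SFRP2, WNT2, WNT3A and WNT7A had 0 counts in HepG2 and in some reference lines. The test could not call them lower.

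NKD1 led the higher members in HepG2, with a log2 fold change of 9.67 (SE 0.18), followed by SFRP5 (7.86) and LGR5 (7.83). SFRP5 had 4 reference lines at 0 counts and LGR5 1, so their fitted sizes depend on the small count added. RNF43 (3.83, SE 0.18), TCF7 (3.65, SE 0.20), AXIN2 (2.59, SE 0.22) and ZNRF3 (2.33, SE 0.12) were higher too. LEF1 was not called, with a fitted value of -3.90. Since 1 reference line, A549, stood at 0 counts, the test could not decide for LEF1. By TPM, HepG2 lay wholly below 6 of the 7 lines for LEF1 and wholly above A549. FZD5 (3.41, SE 0.14), FZD4 (2.60, SE 0.19) and LRP5 (1.70, SE 0.20) were the receptors at over 5 TPM among the higher members. For LRP5 this is the gene total, which rests mostly on short transcripts in HepG2. With mitochondrial genes included, its full-length transcript gave 5.25 TPM in HepG2, against line means of 5.52 to 31.7 TPM in the reference. By TPM with mitochondrial genes included, only NKD1 and SFRP5 had all 3 HepG2 libraries above all libraries of the 7 lines. This depends on the scale. Among tested members, the HepG2 mean without mitochondrial genes was also above that of each of the 7 lines for FZD5, FZD9, LRP5, RNF43, TCF7 and ZNRF3. For TCF7 it was 11.0 TPM against at most 5.87 TPM, and for ZNRF3 14.1 TPM against at most 5.77 TPM. These are line means only. AXIN2 in HepG2 lay wholly above 4 of the 7 lines and wholly below 2 (U2-OS and A549).

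The other higher members were FZD9, FZD10, WNT3, SFRP4, WNT10A and WNT6, all at a mean under 1 TPM in HepG2 (SFRP4 at 1.14 and WNT10A at 1.55 TPM without mitochondrial genes). Of these FZD10 rested on the first HepG2 library, with 0.0897 TPM against 0 in the others, and without it the log2 fold change was -2.52. WNT6 lost its call in 23 of the alternatives tried, and WNT3 and WNT10A in 5 and 1. Among members that were lower, DKK3 (-7.11, SE 0.36), SFRP1 (-6.79, SE 0.40), FZD7 (-5.89, SE 0.29), WNT5A (-5.81, SE 0.58) and FZD8 (-5.68, SE 0.52) had the largest changes of those at 5 TPM or more in a reference line, besides RSPO3 (-5.53), with 0 counts in HepG2. RSPO3 lost its call when any 1 of the 3 HepG2 libraries was left out (edgeR quasi-likelihood test, Benjamini-Hochberg adjusted p from 0.0526 to 0.0683), or 1 of 3 reference libraries. FZD2 (-5.08), WNT5B (-5.04), FZD6 (-4.15), FZD1 (-3.31), WNT9A (-7.19), WNT4 (-2.79), WNT7B (-2.39) and WNT10B (-1.92) were lower as well. Over the 3 HepG2 libraries WNT9A had 0 counts, WNT4 1, WNT5B 2 and FZD8 3. The fitted sizes for WNT9A, WNT4, WNT5B and FZD8 therefore depend on the small count added in the fit. WNT4 lost its call in 11 alternatives, and WNT9A and WNT5B in 1 each, when 1 SK-Mel library was left out.

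In the wider pathway, 4 of 9 other targets were higher and 4 lower in HepG2, where 26.2% and 24.8% of all genes tested were. SP5 measured 23.3, 83.9 and 76.8 TPM and SOX9, a transcription factor of progenitor cells, 17.5, 43.0 and 66.1 TPM, with a log2 fold change of 5.32 (SE 0.27). CD44 (0.115, 0.781 and 0.530 TPM, -8.79, SE 0.50) and the ephrin receptor EPHB3 (0, 0.0196 and 0.0186 TPM, -5.93, SE 0.58) were lower. Of 9 tested other inhibitors 4 were higher and none was called lower, by edgeR also at an unadjusted p under 0.05. For SOSTDC1 and TRABD2B, with fitted values of -4.29 and -6.83, the test could not make such a call. Both had 0 counts in HepG2 and 1 reference line at 0, while other reference lines reached 7.78 and 2.25 TPM. NOTUM, which removes the lipid from WNT proteins, led the higher inhibitors with 20.9, 42.7 and 34.1 TPM in HepG2. U2-OS held 12.4, 8.73 and 1.36 TPM of it and the other 6 reference lines 0 to 0.411 TPM.

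The destruction complex had 3 of 10 genes higher and 4 lower in HepG2. Over all genes tested, 26.2% were higher and 24.8% lower, the shares to set beside each list here. AXIN1 (1.42, SE 0.16) was higher, and APC (-2.58, SE 0.22) and TNKS2 (-1.76, SE 0.21), which marks axin for degradation, were lower. Of 10 transducers, DVL1, a Dishevelled gene, was higher (2.65, SE 0.21) and 5 were lower, led by the β-catenin cofactors PYGO1 (-3.81, SE 0.37) and BCL9L (-1.91, SE 0.29). CTNNB1 itself, named here after its value was seen, was among them (-1.52, SE 0.14). Among 11 genes of the β-catenin-independent branch, 2 were higher, with PTK7 at 17.4, 47.4 and 48.8 TPM (1.42, SE 0.14), and 7 were lower, led by PRICKLE2 (-6.34, SE 0.46) and PRICKLE1 (-5.83, SE 0.54).

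Between the melanoma lines, 5 of 44 members were higher in SK-Mel 28 than in SK-Mel 24, where 15.5% of all genes tested were, and 13 were lower, where 16.5% were. The median log2 fold change was -0.12 over members and 0 over all genes. The lower members included 5 of 10 FZD receptors, 3 WNT ligands, DKK1, DKK3, SFRP1, SFRP4 and NKD1. WNT5B measured 0, 0.181 and 0 TPM in SK-Mel 28, against 11.8, 7.61 and 7.22 TPM in SK-Mel 24, a log2 fold change of -8.93 (SE 0.64). The size of this change rests on 1 count in SK-Mel 28 and depends on the small count added in the fit. DKK3 had 6.66, 4.84 and 6.66 TPM in SK-Mel 28 and 705, 962 and 953 TPM in SK-Mel 24, with a log2 fold change of -7.18 (SE 0.34). WNT5A followed, with 0.564, 0.436 and 0.266 TPM in SK-Mel 28, against 10.4, 15.3 and 19.8 TPM in SK-Mel 24 (-5.08, SE 0.49). None of these 3 overlapped between the lines (edgeR quasi-likelihood test, Benjamini-Hochberg adjusted p = 3.15e-11, 1.72e-14 and 5.27e-09).

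The receptors FZD1 (-3.50, SE 0.33), FZD9 (-2.81), FZD8 (-2.34, SE 0.33), FZD2 (-2.30, SE 0.46) and FZD4 (-1.71, SE 0.33) were lower in SK-Mel 28, as were NKD1 (-2.88, SE 0.52), SFRP4 (-3.32), DKK1 (-1.92, SE 0.27) and SFRP1 (-1.14, SE 0.28). FZD6, by contrast, was higher, at 64.7, 61.3 and 58.6 TPM in SK-Mel 28 and 27.7, 33.1 and 33.3 TPM in SK-Mel 24 (1.14, SE 0.21). RNF43 was higher too, at 8.95, 7.50 and 10.5 TPM in SK-Mel 28 and 0.944, 1.01 and 1.33 TPM in SK-Mel 24, a log2 fold change of 2.88 (SE 0.32). WNT9A (5.13) and DKK2 (3.47) were higher at means under 1 TPM, and WNT10B (1.25) at 1.71 TPM. WNT2 was lower, at 0 counts in SK-Mel 28 and 0.137 ± 0.0763 TPM in SK-Mel 24, which makes it at least 3.71-fold lower against 3 counts over the line. The WNT10B call was lost in 11 alternatives and the WNT2 call in 7, among them the loss of any single SK-Mel 28 library for WNT2. Untested WNT16 had 0 counts in SK-Mel 28 and was at least 11.1-fold lower there. AXIN2 (0.99, SE 0.37), LEF1 (0.58, SE 0.19), TCF7 (-0.94, SE 0.33) and ZNRF3 (0.21, SE 0.18) were not called.

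**Figure D5:**
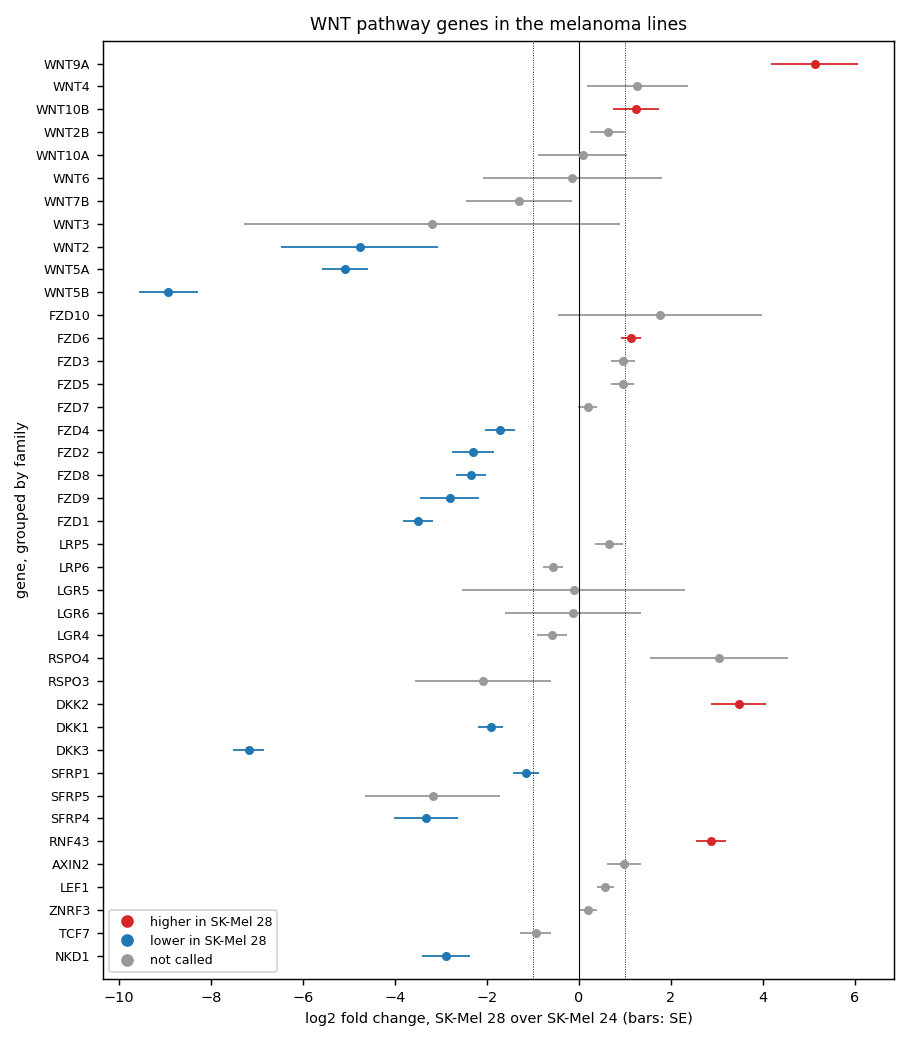
Log2 fold change of the 40 tested members with counts in at least 1 of the melanoma lines, SK-Mel 28 over SK-Mel 24 (points), grouped by family. Bars are the standard error derived from the F statistic, and dotted lines mark a change of 1. WNT5B, DKK3 and WNT5A lie farthest to the left, and 5 of the FZD receptors are on the lower side.

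Beyond the 52 members, CTNNB1 was higher in SK-Mel 28, at 313, 391 and 401 TPM, against 130.4, 146 and 137 TPM in SK-Mel 24 (1.47, SE 0.16), and its cofactor BCL9L was lower (-1.59, SE 0.33), the only 2 of 10 transducers called. GSK3B, the kinase that marks β-catenin, was the 1 higher gene of the destruction complex (1.11, SE 0.18), and 1 of the 10 was lower. Of 9 other targets 3 were higher and 5 lower. MYC stood at 112, 95.2 and 108 TPM in SK-Mel 28 and 21.3, 23.3 and 21.0 TPM in SK-Mel 24 (2.32, SE 0.29), and CCND1, which encodes cyclin D1, was also higher (1.15, SE 0.18), whereas EPHB3 (-3.70, SE 0.41) and the receptor TNFRSF19 (-1.73, SE 0.26) were lower. Among 9 tested other inhibitors 2 were higher and 4 lower, with APCDD1 (-2.29, SE 0.45) and KREMEN1 (-1.32, SE 0.23) in the lower group. The β-catenin-independent branch had 6 of 11 genes higher, led by CELSR1 (5.79, SE 0.31) and PRICKLE2 (3.03, SE 0.34), and 2 lower. Over all genes tested, 15.5% were higher and 16.5% lower, the shares to set beside each of these lists. The lines also differ in serum, 10% for SK-Mel 28 and 15% for SK-Mel 24, which cannot be told apart from the line.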

How the data were processed

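Poly-A RNA of 9 untreated cell lines was sequenced with a strand-specific kit, 3 libraries per line, per the labels' protocols. CASAVA 1.8, kallisto 0.43.1 and GRCh 38 appear, without a stated role, in the submitters' processing notes. The authors' deposited tables give an estimated count and a TPM per transcript. TPM is scaled by transcript length and library total, so an abundant class lowers all other values. Of 176241 transcripts, 159887 matched GENCODE 29; 9.28% did not and were left out. Both units were summed to genes, and estimated counts were rounded. One fit of all 27 libraries used edgeR 4.0.16 in R 4.3.3 (filterByExpr, TMM, robust quasi-likelihood, 1 coefficient per line, Benjamini-Hochberg over 17220 genes; biological coefficient of variation 24.2%), checked on simulated data. Each SE of an edgeR log2 fold change is its absolute value over the square root of its F statistic. Such an SE is unreliable near 0 counts. DESeq2 1.42.0 was an alternative. Values are named for AXIN2, LEF1, TCF7, NKD1, RNF43, ZNRF3, LGR5, the highest gene of each family, and called members at 5 TPM or more (at most 4 per enriched line and 6 per direction). The gene family and the lists were chosen with earlier results of these data known, and its members by symbol alone. Replicate libraries differed by more than sampling noise (lowest chi-square ratio 5.96). A fold against a line at 0 uses 3 counts over its libraries and covers counting error only.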

Additional observations from a re-analysis of the deposited data

How the results depend on the processing

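Of 87 calls of single members, 68 held in every refit (DESeq2, its size factors in edgeR, no low-count filter, the P number in the titles as a covariate or, between the SK-Mel lines, as a block, no mitochondrial genes, HepG2 left out for the other lines' calls, each library left out; not counting the changes of call rule given next), 19 were lost or reversed under at least 1, and 2 of those reversed. The reversed ones were WNT3 in Caco2, from -4.39 without Caco2 replicate 1 to 4.06 without BJ replicate 3, and FZD10 in HepG2, from -2.52 without HepG2 replicate 1 to 4.50 without HepG2 replicate 3. Members enriched in Caco2 numbered 4 without HepG2, against 0 with it. DESeq2 gave 0 in U2-OS and 1 in RT4, against 1 and 2, and a 2-fold margin gave 2 in U2-OS and 5 in BJ, against 1 and 3. Requiring 1 TPM in the higher side left 9 higher members in HepG2 and 3 in SK-Mel 28, against 16 and 5, and 9 were higher in SK-Mel 28 with no fold limit. The cause of these changes was not tested beyond what the settings themselves remove. With each library left out in turn, the F test called 47 to 48 members, since the filter then kept more. Members higher numbered 17 to 20 in Caco2, 14 to 16 in HepG2 and 4 to 6 in SK-Mel 28, and members lower 8 to 10, 12 to 14 and 12 to 15. Members enriched numbered 3 to 4 in BJ, 0 for Caco2, SK-Mel 28 and U251, 1 for HepG2, U2-OS and SK-Mel 24, 3 for A549 and 2 for RT4 throughout. Members at 1 TPM or more numbered 29 to 30 in U2-OS, 23 to 25 in A549, 22 to 23 in Caco2, 21 to 23 in RT4, 19 to 21 in SK-Mel 24, 18 to 21 in SK-Mel 28, 19 to 20 in U251, 18 in BJ and 11 to 12 in HepG2. With a replicate block by P number, added after seeing the data and possible between the SK-Mel lines, whose titles share P8, P9 and P10, 6 members were higher and 12 lower in SK-Mel 28, against 5 and 13. Deviations from the line means correlated at 0.096, 0.269 and 0.109 over 17220 genes for P8, P9 and P10, each above both other pairings, but P8 was under 0.1 and what P means is not given, so the libraries were not treated as paired. Members under 1 TPM rest on few counts, and 8 could not be tested at this depth.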

Other observations

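Transcripts of RNF43 and DKK1, looked at after their values were seen, also differed in share between lines. RNF43-207, whose 5′ end lies at 58415641 on chromosome 17, gave 7.80 TPM in HepG2, 89.2% of the gene, and 9.40 TPM in Caco2, whereas RNF43-208 gave 63.9% of the gene in A549. A DKK1 transcript that starts inside the gene, at 52315252 on chromosome 10, ranged from 3.31% of DKK1 in HepG2 to 50.8% in RT4, over the 8 lines where DKK1 reached 1 TPM. Transcript shares are the authors' assignments and were not tested.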
